A study of Mus musculus with 3 samples.

Results

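The miRNA content of mouse serum was described on the 1 array that carried the exoRNeasy total RNA extract. The donors were male mice of the inbred strain C57BL/6NJcl at an age of 8 weeks, and their serum was separated from the cells by centrifugation. Here 700 µL of the phenol and guanidine reagent QIAzol was added to 200 µL of serum, and the RNA of the watery phase was purified with the exoRNeasy midi kit. The kit is sold for vesicle RNA, but in this use the labels state total serum RNA as the aim. The other 2 arrays of the series, used here only for reference, carried RNA from the same volume of serum of such mice extracted over columns with the miRNeasy serum/plasma advanced kit or with the mirVana PARIS kit, an organic extraction followed by a glass-fibre filter. The labels name anaesthesia at bleeding and no other treatment. The number of mice and any pooling of their serum were not given in the labels used here. Each array received 1.8 ng of RNA carrying the dye Cy3, and all were on 1 slide scanned on the same day.

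All 56430 spots that were not controls were taken, which stood for 4415 probes and 1881 miRNAs. A miRNA counted as detected when at least 1 of its probes had more than 0.5 of its unflagged spots well above background. This held for 83 of the 1881 miRNAs (4.41%), against 71 with miRNeasy advanced and 134 with mirVana PARIS. The level of a miRNA is its total gene signal, the intensity that the scanner software sums over the probes it accepts, and each error is the error the software gives for that sum, which covers spots of this array and neither the extraction nor the animals. Shares are percentages of the summed signal of detected miRNAs. Ranks and shares order signals and not molecules, since probes differ in how strongly they bind. With 1 array per extraction there was no replicate and no test, and every comparison below is between single arrays.

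miRNAs are short RNAs that guide Argonaute proteins to messenger RNAs, and the bases 2 to 8 from the 5′ end, the seed, govern most of the pairing. In blood fluids they are protected by Argonaute and other proteins, lipoproteins and vesicles, and many are made mainly in 1 kind of cell, so that serum is a mixture of contributions from blood cells, endothelium and organs. Mature sequences from RefSeq (GRCm38.p6) were matched by name to 74 of the 83 detected miRNAs. The 5 brightest are shown first because they carry most of the signal, with the seed in capitals.
miR-451a: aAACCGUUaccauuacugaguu
miR-3963: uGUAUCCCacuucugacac
miR-3473b: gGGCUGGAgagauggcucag
miR-21a-5p: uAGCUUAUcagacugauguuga
miR-223-3p: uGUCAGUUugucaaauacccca

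These 5 lie at separate loci. The red cell miRNA miR-451a, whose hairpin is cut by Argonaute 2 in place of Dicer, is at chr11:78073186-78073207 on the plus strand, outside any other annotated gene. miR-3963 is at chr3:151023839-151023857 on the minus strand, also outside other genes. miR-3473b lies within the bounds of the protein-coding gene Ccdc162, at chr10:41670774-41670793. miR-21a-5p, which is found in most tissues and is raised in many injured ones, is at chr11:86584120-86584141 within the bounds of Vmp1. The granulocyte and platelet miRNA miR-223-3p is at chrX:96242884-96242905 within the non-coding gene F630028O10Rik.

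The signal was concentrated in very few miRNAs. miR-451a alone had a total signal of 2063 ± 152, which was 39.2% ± 1.80 of the summed signal of 5259. It was followed at a distance by miR-3963 with 318 ± 26.1 (6.05%), miR-3473b with 279 ± 19.9 (5.30%), miR-21a-5p with 255 ± 22.1 (4.85%) and miR-223-3p with 181 ± 15.05 (3.44%). The 3 brightest miRNAs together passed 50% of the signal, the 10 brightest held 69.4% and the 37 brightest 90%. At the other end, 24 of the 83 miRNAs had less than 0.2% each, and the median signal was 18.6.

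miR-451a was the brightest miRNA on every array, but its share was lowest here. It took 49.3% of the signal with miRNeasy advanced and 52.9% with mirVana PARIS. The 10 brightest miRNAs held 76.2% and 74.1% there, and 2 miRNAs and 1 miRNA were enough to pass 50%. The order at the top was nearly shared: the 10 brightest here were also the 10 brightest of the common miRNAs on the miRNeasy advanced array, and 9 of them on the mirVana PARIS array.

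**Figure D1:**
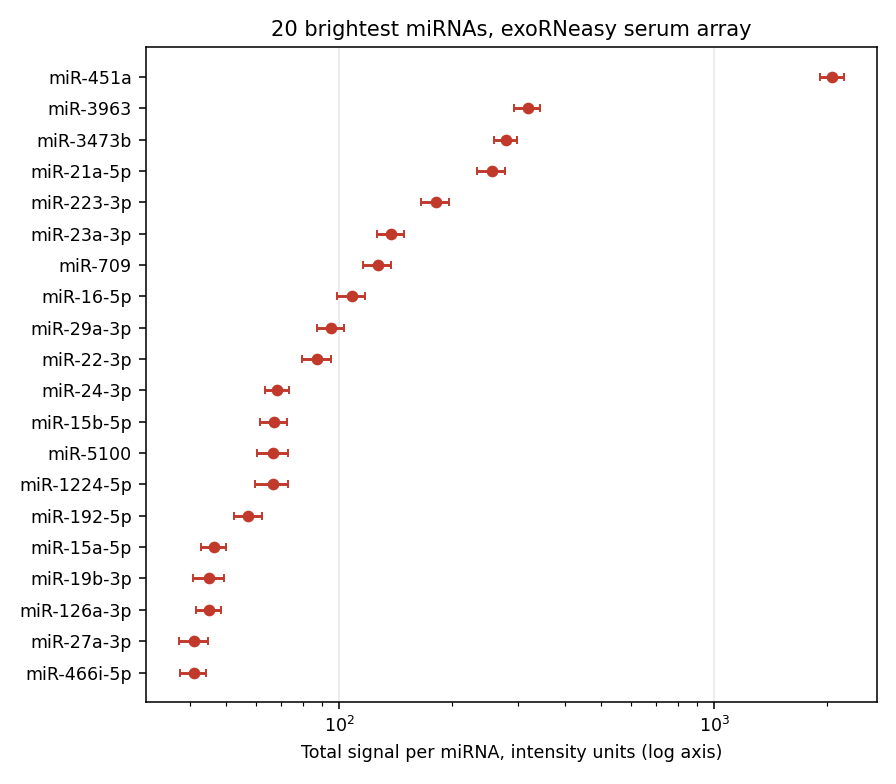
Total signal (x axis, intensity units, log scale) of the 20 brightest miRNAs on the exoRNeasy array; points are the single array's values and bars the scanner software's error. miR-451a at 2063 stands far above miR-3963 at 318, and the last of the 20, miR-466i-5p, is at 41.0.

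Below the leading 5 came a mixed set of miRNAs. miR-23a-3p had a signal of 138 ± 11.6, and its cluster partners miR-24-3p and miR-27a-3p, which are cut from the miR-23a transcript on chromosome 8 (miR-24-3p also comes from a further locus on chromosome 13), had 68.4 ± 5.11 and 41.0 ± 3.61. miR-709 had 127 ± 11.03, and miR-16-5p, a repressor of cell cycle genes that is abundant in red cells, 108 ± 9.39. miR-29a-3p, which targets collagen messages, followed with 95.2 ± 7.80 and miR-22-3p with 87.3 ± 7.87. The next 4, miR-24-3p at 68.4, miR-15b-5p at 67.2 ± 5.51, miR-5100 at 66.6 ± 6.27 and miR-1224-5p at 66.5 ± 6.73, lay within 1 error of each other, so their order is not resolved. miR-192-5p, rank 15 with 57.3 ± 4.82, closed the set of 15 miRNAs with more than 1% of the signal.

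Most of the signal that could be assigned to a source lay in miRNAs of blood cells. Lists of miRNAs known to be enriched in a cell type or tissue were compared with the array, and the share of members detected is to be read against 4.41% over all miRNAs. A higher level of a list cannot tell more releasing cells from more RNA released per cell. The list restricted to red cells and their precursors had 3 of 7 members detected and held 40.0% ± 1.78 of the signal. Nearly all of this was miR-451a. miR-486a-5p had a signal of 21.3 ± 2.10 and miR-144-3p, which is cut from the same transcript as miR-451a, 17.4 ± 1.85. A second list, of miRNAs abundant in red cells but shared with other blood cells, had 11 of 38 members detected and 7.81% ± 0.337 of the signal, led by miR-16-5p, miR-15b-5p, miR-15a-5p with 46.4 ± 3.57 and miR-19b-3p with 45.1 ± 4.21.

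Of the detected miRNAs of white cells and vessel lining, miR-223-3p and miR-126a-3p lay above the median signal of 18.6 and the others below it. The myeloid and pan-leukocyte list had 37.5% of its members detected, the endothelial and platelet list 16.7% and the lymphoid list 0%, against 4.41% over all miRNAs. The myeloid and pan-leukocyte list had 3 of 8 members detected and 3.76% ± 0.300 of the signal, of which miR-223-3p made up 3.44%. The others were miR-142a-3p, made in all blood-forming lineages, with 10.6 ± 1.45, and miR-146a-5p, a brake on innate immune signalling, with 6.49 ± 1.17. Of 6 endothelial and platelet miRNAs only miR-126a-3p, encoded within the bounds of Egfl7, was detected, with 45.01 ± 3.56 or 0.856% of the signal. None of the 8 lymphoid miRNAs was detected; 7 of them stood at 0.1, the value the software enters for miRNAs it does not accept, and 1 was accepted by the software at 3.43.

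Organ miRNAs formed a minor part of the signal. miR-122-5p, the main miRNA of hepatocytes, had a signal of 37.9 ± 3.17, or 0.720% of the total, and was the 1 detected of 4 liver miRNAs. The related miR-192-5p and miR-215-5p, shared by liver, intestine and kidney, had 57.3 ± 4.82 and 14.9 ± 1.78, and with them 2 of 7 members of their list were detected (1.37% ± 0.105). Heart and skeletal muscle gave 3 of 17 members and 1.32% ± 0.0942, through miR-1a-3p with 33.3 ± 3.48, miR-133b-3p with 22.6 ± 2.40 and miR-133a-3p with 13.3 ± 1.65. Epithelial miRNAs, which keep the repressors Zeb1 and Zeb2 low, gave 3 of 14 members and 0.609% ± 0.0524. These were miR-200b-3p with 12.3 ± 1.57, miR-429-3p with 10.4 ± 1.56 and miR-200a-3p with 9.37 ± 1.35, all from 1 cluster on chromosome 4. When detection called for all of a miRNA's probes above background, neither the muscle nor the epithelial list had a detected member and both shares were 0; after normexp background correction the epithelial share was 1.52%. Of 11 mesenchymal and smooth muscle miRNAs only miR-199a-3p was detected, at 16.7 ± 1.87.

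Several lists had no detected member. None of 21 brain miRNAs was detected and each stood at 0.1. None of 11 pancreas miRNAs was detected, with 10 at 0.1 and the other at 4.53. The imprinted Dlk1-Dio3 locus, whose miRNAs are made mainly before birth and in neurons, had 69 miRNAs on the array and no detected one, with 68 at 0.1 and the other at 7.87. The large rodent cluster in an intron of Sfmbt2 had 61 by name, of which only miR-466i-5p passed. Membership was taken from the number in the name alone, and miR-466i-5p had no RefSeq position to place it there. Detection here means a probe signal of at least about 22.0, the lowest among detected probes, against 12.4 with miRNeasy advanced and 9.56 with mirVana PARIS, so a dim miRNA could be called on those arrays and missed on this one.

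**Figure D2:**
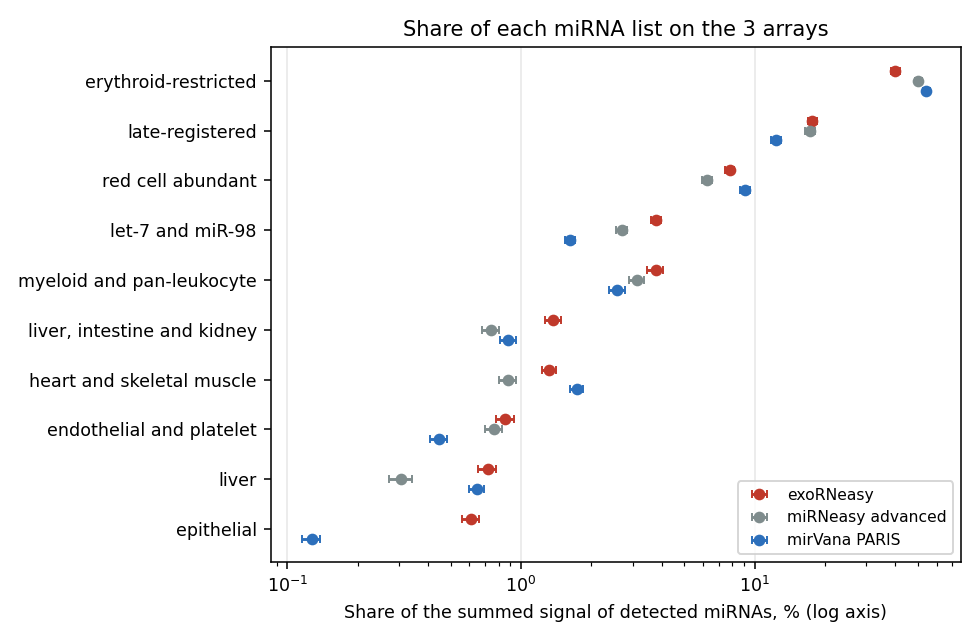
Share of each miRNA list in the summed signal of detected miRNAs (x axis, percent, log scale) on the 3 arrays; points are single arrays and bars the software's error carried to the share. The erythroid-restricted list is lowest on exoRNeasy (40.0%), the let-7 and epithelial lists are highest there (3.78% and 0.609%), and no epithelial miRNA was detected on miRNeasy advanced.

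Against the other arrays, the shares of these lists differed in opposite directions. The erythroid-restricted list held 50.1% ± 1.87 with miRNeasy advanced and 54.2% ± 1.80 with mirVana PARIS. The let-7 list held 2.69% ± 0.144 and 1.62% ± 0.0845 there, against 3.78% ± 0.174 here. The list of liver, intestine and kidney miRNAs held 0.745% ± 0.0621 and 0.880% ± 0.0659 there, against 1.37% here. Muscle miRNAs lay in between, with 0.875% on the miRNeasy advanced array, 1.32% here and 1.73% on the mirVana PARIS array. Since shares add up to 100%, a lower share of miR-451a raises all the others; the ranks and centred differences given further on are free of this.

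A large part of the signal came from miRNAs that entered the registry late, taken as those numbered 1000 or higher. Their detection was less frequent than over the whole array, 18 of 1062 (1.69%) against 4.41%, but they held 17.6% ± 0.756 of the signal. miR-3963 and miR-3473b made up most of it. The others ran from miR-5100 with 66.6 and miR-1224-5p with 66.5 through miR-6366 with 36.5 ± 3.01 and miR-5126 with 31.5 ± 2.62 down to miR-1894-5p with 4.84 ± 1.09. The 18 were richer in G and C, with a median of 63.4%, than the 56 other detected miRNAs with a RefSeq sequence, with a median of 40.9%. All 1534 miRNAs not detected had a median of 52.4%. The late-registered ones among them were not taken apart, so the difference cannot be assigned to the detected 18 alone. A run of GGGG occurred in 8 of the 74 detected sequences (10.8%), against 182 of the 1608 array miRNAs with a sequence (11.3%); the search used the mature strand alone.

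The miR-3473 miRNAs overlap in sequence, so their probes may not measure separate RNAs. They are shown with their shared run of 10 bases in capitals.
miR-3473b: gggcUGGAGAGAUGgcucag
miR-3473f: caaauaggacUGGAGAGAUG
miR-3473a: UGGAGAGAUGgcucagca
This run occurs in 4 of the 1608 array miRNAs with a sequence (0.249%), these 3 included. It was taken from these 3 because they were detected, so it says nothing about how often its carriers are detected. miR-3473b and miR-3473a share 16 bases in a row, yet their signals here were 279 ± 19.9 and 5.07 ± 1.095; miR-3473f had 9.72 ± 1.09. The 3 miRNAs lie on chromosomes 10, 1 and X, each within the bounds of a protein-coding gene. With mirVana PARIS miR-3473b was also the brighter of these 2, at 314 against 8.51; with miRNeasy advanced miR-3473b had 179.7 and miR-3473a was not detected.

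Both arms of the hairpins were detected about equally often. Of the detected miRNAs 38 are named as 5p arms, 31 as 3p arms and 14 carry no arm. Detection was 4.90% of 775 5p names and 3.95% of 785 3p names, on both sides of 4.41% for all. The 5p arms held 22.4% ± 0.794 and the 3p arms 20.7% ± 0.733 of the signal; names without an arm, miR-451a among them, held 56.9% ± 1.34. Leaving out miR-451a the 3 shares were 36.8%, 34.1% and 29.1%. Of 723 hairpins with both arms on the array, 55 had a detected arm, 29 the 5p arm alone, 24 the 3p arm alone and 2 both.

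The 2 hairpins with both arms detected were miR-140 and let-7d. For miR-140, a miRNA of cartilage that is encoded within the bounds of Wwp2, the 3p arm had 29.9 ± 2.93 and the 5p arm 16.1 ± 1.79. The 3p arm was also the brighter one elsewhere, at 15.4 against 12.3 with miRNeasy advanced and 54.7 against 25.9 with mirVana PARIS. For let-7d the 5p arm had 9.06 ± 1.33 and the 3p arm 4.65 ± 0.723. Arms are measured by different probes, so their order on 1 array may be that of the probes. For let-7d the order was the same with mirVana PARIS, at 10.1 against 2.97, and with miRNeasy advanced the 3p arm was not detected.

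By seed, the 74 miRNAs with a sequence fell into 52 seeds, of which 10 were shared by at least 2 detected miRNAs. The 32 miRNAs of these 10 seeds held 16.9% of the signal. Over all miRNAs 4.41% were detected. The families named next were chosen for at least 3 detected members, so their higher detected fractions follow in part from that choice. The largest share belonged to the seed AGCAGCA of the miR-15 and miR-16 family, with 5 of 10 array members detected and 4.42% ± 0.250 of the signal. The let-7 seed GAGGUAG came next with 7 of 11 members and 3.69% ± 0.172. The miR-29 seed AGCACCA had 3 of 3 members and 2.28% ± 0.166. The miR-17 seed AAAGUGC, from 3 related clusters that drive proliferation, had 4 of 6 members and 1.40% ± 0.0869. The seed GUAAACA of the miR-30 family had 3 of 4 members with a sequence and 0.787% ± 0.0581, without miR-30d-5p at 13.6 ± 1.68. The share of this seed was 0 when detection called for every probe above background, and 1.99% after normexp background correction.

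Within families the signals were unequal. In the miR-29 family miR-29a-3p had 95.2, miR-29c-3p 18.6 ± 1.91 and miR-29b-3p 6.13 ± 1.15. miR-29c-3p differs from miR-29a-3p by 1 base, C10U, with positions counted from the 5′ end. In the miR-15 and miR-16 family miR-16-5p, miR-15b-5p and miR-15a-5p had 108, 67.2 and 46.4, while miR-497a-5p and miR-195a-5p had 5.54 ± 1.12 and 5.31 ± 1.11. The miR-17 seed ran from miR-106b-5p with 31.7 ± 2.79 through miR-20a-5p with 22.7 ± 2.15 and miR-93-5p with 12.1 ± 1.55 to miR-20b-5p with 7.24 ± 1.21. miR-17-5p, from the same transcript as miR-20a-5p, was listed at 0.1 on all 3 arrays.

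The let-7 miRNAs, which time development and restrain growth, are shown in full because they differ by few bases and yet took different places. Capitals mark the bases that differ from let-7a-5p.
let-7a-5p: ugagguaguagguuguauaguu
let-7c-5p: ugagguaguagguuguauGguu
let-7b-5p: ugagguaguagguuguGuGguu
let-7f-5p: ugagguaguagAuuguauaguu
let-7d-5p: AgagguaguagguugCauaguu
let-7g-5p: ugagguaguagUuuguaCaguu
let-7i-5p: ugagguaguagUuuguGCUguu
The signals were 40.8 ± 3.38 for let-7i-5p, 37.4 ± 3.27 for let-7c-5p, 36.5 ± 3.18 for let-7g-5p, 28.7 ± 2.54 for let-7b-5p and 25.5 ± 2.46 for let-7a-5p, with let-7f-5p at 16.02 ± 1.88 and let-7d-5p at 9.06. The first 3 lay within about 1 error of each other.

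Ranks were then compared over the 67 miRNAs detected on all 3 arrays, with rank 1 for the brightest. Most moves were small. The median was 3 places against the miRNeasy advanced array and 5 against the mirVana PARIS array, while those arrays differed from each other by a median of 6. Across these miRNAs, which share probes and slide and are not replicates, Spearman's rho was 0.894 and 0.818 for exoRNeasy with the 2 arrays. Against the miRNeasy advanced array 9 miRNAs (13.4%) ranked at least 10 places higher here and 9 (13.4%) at least 10 lower. Against the mirVana PARIS array the counts were 10 (14.9%) and 10 (14.9%).

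Those at least 10 places higher than on both other arrays numbered 4 of 67 (5.97%), and those at least 10 places lower 3 of 67 (4.48%). The higher ones were miR-466i-5p, miR-328-3p, miR-3095-3p and miR-342-3p. The lower ones were miR-144-3p, miR-142a-3p and miR-19a-3p. Differences between arrays are given for these as log2 differences of total signal centred on the median over the 67 miRNAs, which no single scale factor can change; the 67 have a median of 0 and 49.3% lie above it in either comparison. At least 2-fold above it lay 2 of 67 (2.99%) against miRNeasy advanced and 8 (11.9%) against mirVana PARIS, and at least 2-fold below it 3 (4.48%) and 4 (5.97%). The sequences of those in the RefSeq table follow, with the seed in capitals.
miR-3095-3p: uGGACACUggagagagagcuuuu
miR-342-3p: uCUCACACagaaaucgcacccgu
miR-144-3p: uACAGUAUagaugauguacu
miR-142a-3p: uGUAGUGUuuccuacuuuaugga
miR-19a-3p: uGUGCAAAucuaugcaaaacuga

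miR-466i-5p showed the widest move. Its total signal was 41.0 ± 3.22 here, 8.32 ± 0.942 with miRNeasy advanced and 11.7 ± 1.04 with mirVana PARIS, which gave it ranks 20, 48 and 63. It was brighter here than on either array before any centring. The centred differences were 1.34 ± 0.199 and 2.61 ± 0.171. Its brightest probe alone gave 1.29 ± 0.0822 and 2.48 ± 0.0547, so both measures put it above the median by many times the spot error.

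miR-328-3p had total signals of 17.7 ± 1.92 here, 3.62 ± 0.627 with miRNeasy advanced and 8.50 ± 0.957 with mirVana PARIS. Its ranks were 44, 61 and 67. Here the software summed 2 of its probes and on the other arrays 1, and on its brightest probe alone the centred differences of 1.34 and 1.87 came down to 0.78 ± 0.0795 and 1.20 ± 0.0501. On that probe it still ranked 14 and 17 places higher.

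miR-3095-3p, encoded within the bounds of Lpar1, had signals of 19.0 ± 1.92, 5.06 ± 0.807 and 14.8 ± 1.22 in the same order, and ranks 41, 55 and 56. The centred differences were 0.95 ± 0.272 and 1.17 ± 0.188. miR-342-3p, a miRNA of blood cells within the bounds of Evl, had 23.6 ± 2.22, 7.20 ± 0.901 and 24.4 ± 1.89, and ranks 37, 49 and 47. It lay exactly at the limit of 10 places against the mirVana PARIS array, and on its brightest probe the move there was 7 places.

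miR-144-3p was the clearest of the lower ones. Its signal was 17.4 ± 1.85 here, 17.7 ± 1.45 with miRNeasy advanced and 104 ± 7.37 with mirVana PARIS, and its ranks were 46, 26 and 17. The centred differences were −0.98 ± 0.193 and −1.76 ± 0.184. miR-451a, from the same transcript on chromosome 11, had centred differences of −0.63 ± 0.150 and −0.78 ± 0.149. Both thus lay below the median of all, and miR-144-3p farther than its partner. The other detected member of the erythroid-restricted list, miR-486a-5p, lay at 0.11 ± 0.206 and −0.56 ± 0.178, the first within its error of the median.

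miR-142a-3p had signals of 10.6 ± 1.45, 16.6 ± 1.54 and 34.5 ± 2.90, in the same order, and ranks 55, 28 and 39. It was dimmer here than on either array even before centring. The software summed 1 probe here and 2 elsewhere; on the brightest probe the centred differences of −1.60 and −0.89 became −1.26 ± 0.0588 and −0.66 ± 0.0564. Of the other leukocyte miRNAs, miR-223-3p lay at 0.16 ± 0.170 and 0.35 ± 0.167 and miR-146a-5p at −0.19 ± 0.355 and −0.26 ± 0.297, the latter within its errors of the median.

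miR-19a-3p held the last rank, 67, against 53 and 40. Its signals were 5.09 ± 1.098, 5.42 ± 0.833 and 33.1 ± 2.505. It differs from miR-19b-3p by 1 base, C11U, and both come from the miR-17-92 transcript, miR-19b-3p also from a further locus on chromosome X; miR-19b-3p had ranks 17, 20 and 16. The software summed 1 probe of miR-19a-3p here and 2 on each other array. On its brightest probe alone the centred differences of −1.05 and −1.89 became −0.53 ± 0.0802 and −1.35 ± 0.0603, and its move against the miRNeasy advanced array was 9 places, short of the limit.

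Just outside the limit lay let-7d-5p, 10 and 8 places higher, let-7a-5p, 8 and 19 places higher, miR-125b-5p, 8 and 15 places higher, and miR-92a-3p, 7 places higher against each array. On the lower side the nearest was miR-106b-5p, 6 and 15 places lower. The number of probes summed differed from the miRNeasy advanced array for 5 of the 67 miRNAs and from the mirVana PARIS array for 19, with fewer probes here in 18 of those 19.

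**Figure D3:**
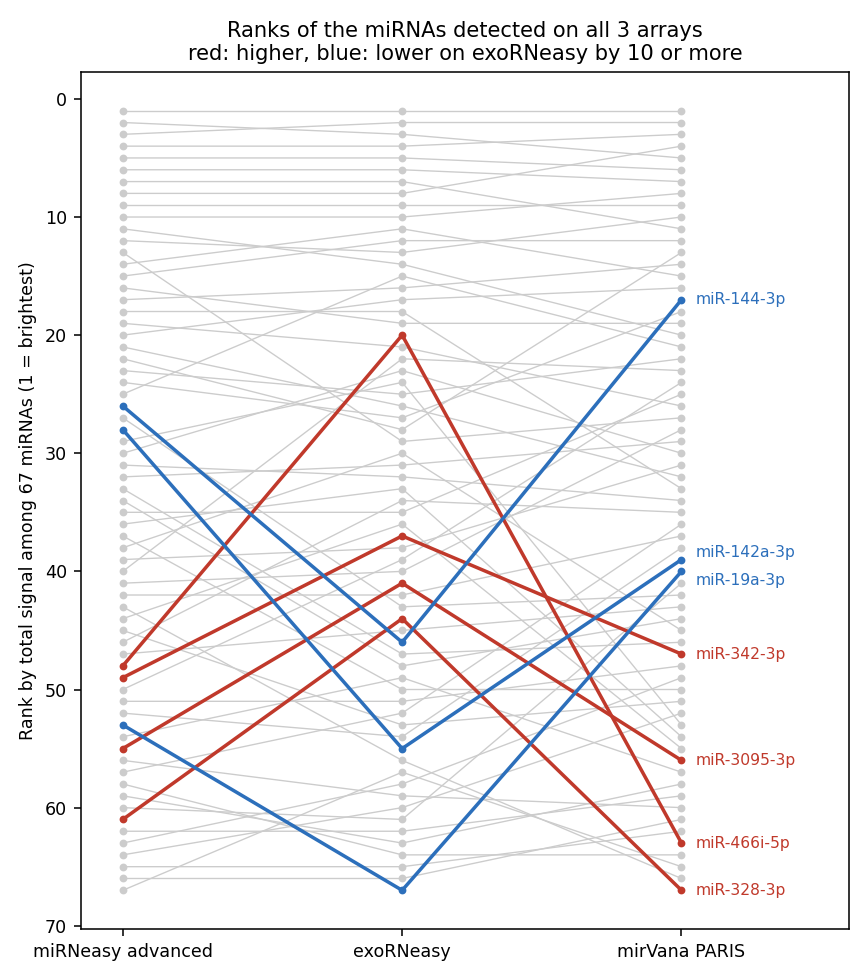
Rank by total signal (y axis, 1 at the top) of the 67 miRNAs detected on all 3 arrays, 1 line per miRNA across miRNeasy advanced, exoRNeasy and mirVana PARIS. The 4 red lines peak on exoRNeasy, miR-466i-5p from rank 48 and 63 up to 20, and the 3 blue lines dip there, miR-144-3p from 26 and 17 down to 46.

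Seed families differed in how alike their members moved. The 2 common members of the miR-30 seed lay on both sides of the median against the mirVana PARIS array, at −0.55 and 0.21. Against the mirVana PARIS array the centred difference was above 0 for 7 of 7 let-7 miRNAs, against 49.3% of the 67, and their median was 1.02. They ran from 1.77 ± 0.176 for let-7c-5p, 1.53 ± 0.174 for let-7b-5p and 1.44 ± 0.187 for let-7a-5p down to 0.34 ± 0.168 for let-7g-5p and 0.26 ± 0.161 for let-7i-5p. Against the miRNeasy advanced array 5 of the 7 lay above the median, between −0.17 and 0.71. let-7c-5p held rank 24 here, 29 and 53 there. let-7i-5p and let-7g-5p were the 2 members with the smallest differences in the first comparison and the 2 negative ones in the second. They alone carry the substitutions G12U and U18C, which occur together and so cannot be told apart. This was seen after the values were known, and an effect of either base was not tested.

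The miR-17 seed went the other way against the mirVana PARIS array alone. Its 4 members lay below the median there, at −1.12 ± 0.166 for miR-106b-5p, −1.10 ± 0.267 for miR-20b-5p, −0.75 ± 0.228 for miR-93-5p and −0.36 ± 0.174 for miR-20a-5p, while against the miRNeasy advanced array 3 of the 4 lay above it, between −0.30 and 0.19. For miR-20b-5p the software summed 1 probe here and 2 on the mirVana PARIS array, and on its brightest probe alone the difference there was −0.62 ± 0.0630. Of the list abundant in red cells 1 of 11 lay above the median against the mirVana PARIS array, that of miR-92a-3p at 0.30 ± 0.176, and 8 of 11 against the miRNeasy advanced array. miR-16-5p was at −0.80 ± 0.174 and 0.01 ± 0.177 in these comparisons.

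**Figure D4:**
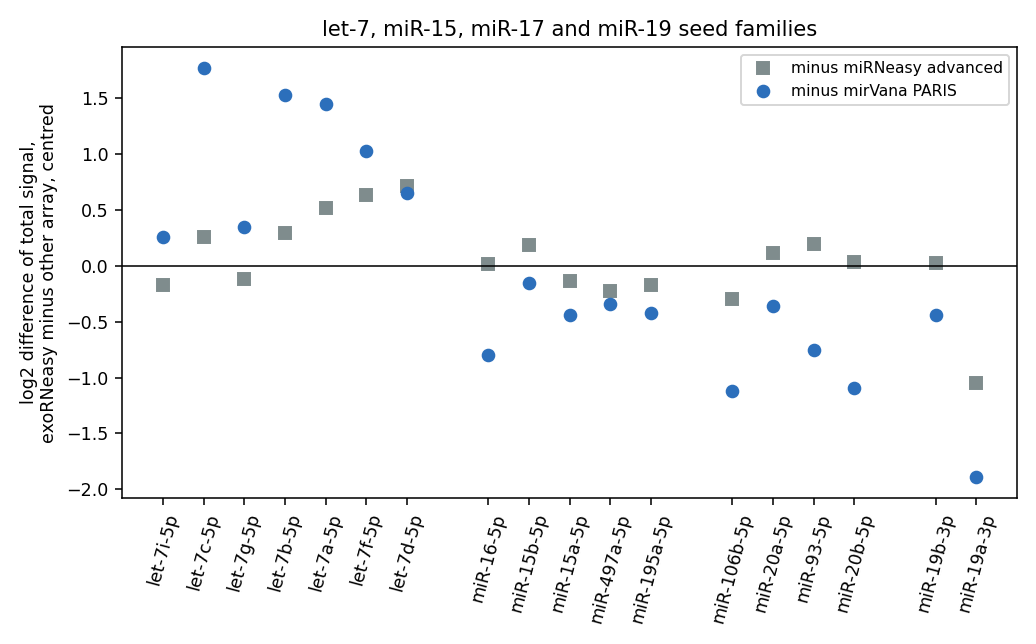
Centred log2 difference of total signal, exoRNeasy minus the other array (y axis), for members of 4 seed families; squares are against miRNeasy advanced and circles against mirVana PARIS, single arrays without replicate error. The let-7 circles all lie above 0, up to 1.77 for let-7c-5p, and the miR-15, miR-17 and miR-19 circles all lie below 0. Of the let-7 squares 5 of 7 lie above 0, within a range of −0.17 to 0.71. The other squares lie on both sides of 0, with miR-19a-3p lowest at −1.05.

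The organ miRNAs did not move alike. miR-122-5p ranked 22 here, 40 with miRNeasy advanced and 23 with mirVana PARIS, with centred differences of 0.94 ± 0.194 and −0.02 ± 0.162. miR-192-5p ranked 15, 25 and 21 and lay above the median in both, at 0.67 ± 0.178 and 0.34 ± 0.166. miR-133b-3p ranked 39, 50 and 24 and miR-133a-3p 52, 57 and 36, so both stood between the other arrays. miR-1a-3p, also of muscle, was low against both, at −0.12 ± 0.213 and −0.76 ± 0.198, the first within its error of 0. The late-registered miRNAs were low against the miRNeasy advanced array, with 2 of 13 above the median and a list median of −0.31, and not against the mirVana PARIS array, with 9 of 13 and 0.22. In the first comparison miR-5126 was lowest, at −1.07 ± 0.161, with signals of 31.5 here and 34.0 there.

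Some miRNAs had no rank because they were not detected on every array. Of the 83, 16 were not detected on the miRNeasy advanced array and 3 not on the mirVana PARIS array; in return 4 and 54 were detected there and not here. Detection on this array alone held for miR-1894-5p, miR-483-3p and miR-429-3p. The sequences of these 3 are shown with the 2 other epithelial miRNAs, with seeds in capitals; miR-429-3p and miR-200b-3p share theirs and miR-200a-3p differs from it.
miR-429-3p: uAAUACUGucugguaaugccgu
miR-200b-3p: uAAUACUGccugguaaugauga
miR-200a-3p: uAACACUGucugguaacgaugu
miR-483-3p: uCACUCCUccccucccgucuu
miR-1894-5p: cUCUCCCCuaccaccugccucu

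miR-429-3p had a total signal of 10.4 ± 1.56. Its brightest probe gave 26.6 ± 0.752 here, 3.74 with miRNeasy advanced and 8.64 with mirVana PARIS. miR-483-3p, encoded within the bounds of Igf2, had a total signal of 10.6 ± 1.57, and probe signals of 26.4 ± 0.706, 11.6 and 6.13. Against the lowest detected probe of the mirVana PARIS array, and centred on the median difference of the matched probes of the 67 miRNAs, miR-429-3p was at least 4.51-fold, miR-483-3p at least 4.49-fold and miR-1894-5p at least 3.87-fold higher here; without centring the bounds were 2.78-fold, 2.77-fold and 2.39-fold. Against the miRNeasy advanced array the bounds of the first 2 were 1.11-fold and 1.101-fold and miR-1894-5p gave none.

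The 2 other epithelial miRNAs of this cluster had less signal on the other arrays. Of the 14 epithelial miRNAs 4 were detected with mirVana PARIS, with 0.127% of its signal, and 2 of these 4 were not detected here. miR-200b-3p had 12.3 ± 1.57 here, 1.83 on the miRNeasy advanced array, where it was not detected, and 5.10 on the mirVana PARIS array. miR-200a-3p had 9.37 ± 1.35, 1.69 and 3.08 in the same order. Among the 80 miRNAs detected on both this and the mirVana PARIS array, miR-200b-3p ranked 55 and 73 and miR-200a-3p 61 and 77, so they were 18 and 16 places higher here.

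miR-574-5p moved as far within the same 80, from rank 79 on the mirVana PARIS array to 57 here. It is shown because it holds an unbroken GU repeat of 12 bases, in capitals.
miR-574-5p: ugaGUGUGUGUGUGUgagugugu
Its total signal was 11.7 ± 1.65 here, 1.70 with miRNeasy advanced and 2.51 with mirVana PARIS. The software summed 2 probes here and 1 elsewhere; the brighter one had 40.8 ± 1.32 here, and 8.01 and 11.8 there. The letters GUGUGU occur in 1 of the 74 detected sequences (1.35%) and in 16 of the 1608 on the array (0.995%). miR-466i-5p, which moved farthest, had no RefSeq sequence and was left out of this count.

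Base composition was compared next. The 74 detected miRNAs with a sequence had a median of 45.5% G and C, against 52.4% for the 1534 not detected. The 3 miRNAs with lower ranks here had 30.0% for miR-144-3p and 34.8% for miR-142a-3p and miR-19a-3p. Yet over the 59 common miRNAs with a sequence the correlation of G and C content with the centred difference was weak, with r = −0.09 and rho = 0.07 against the miRNeasy advanced array and r = 0.12 and rho = 0.13 against the mirVana PARIS array, as a description over probes that share a slide. The 27 miRNAs with less than 45% had median differences of −0.12 and −0.0069, and the other 32 had 0.00046 and 0.15.

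The limit of detection was not sharp in total signal. The dimmest detected miRNAs were miR-139-5p with 3.19 ± 0.722, let-7d-3p with 4.65, miR-1894-5p with 4.84, miR-30c-5p with 4.92 ± 1.09 and miR-3473a with 5.07, each through 1 probe. The brightest undetected ones had more total signal, which is a sum over accepted probes, while detection is read from the spots of 1 probe. They were miR-7047-3p with 8.59 ± 1.51, miR-296-5p with 8.58 ± 1.503, miR-3470a with 8.05 ± 1.49, miR-7080-3p with 7.94 ± 1.48 and miR-7084-3p with 7.87 ± 1.48. Their brightest probes lay between 18.9 and 22.1, around the 22.0 of the lowest detected probe, and undetected probes reached 24.1.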

How the data were processed

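Intensity values were deposited as linear scanner output. Per the file headers the version of Agilent's Feature Extraction was 11.5.1.1 (11.5 in the submitters' processing notes). The intensity used is background-subtracted, and the authors' files show no normalisation between arrays. The 3 arrays share slide and scan day, and no spot was saturated. Spots with outlier marks were left out of probe means, 1515 on the exoRNeasy array. The total gene signal was used as deposited. Ranks and centred differences need no scaling between arrays. The deposited value table held the same intensity values, each of 58594 per array within 0.5% of the scanner value, linear and not centred, with a column median of −2.77 for exoRNeasy; the medians of miRNeasy advanced and mirVana PARIS were −1.51 and −1.44. The planned normexp correction (limma 3.58.1, R 4.3.3, offset 50) was run on pixel medians, since the files hold no mean signal. Tables were made with Python 3.11.15 and pandas 2.3.3. No test was run, with 1 array per extraction; the number of arrays limits the precision. The ranking step was tested on simulated data. Members and lists were chosen with earlier results of these data known. miRNAs were named by rule: the 15 brightest, moves of 10 places against both arrays, up to 4 per list, both arms, shared seeds, 4 clusters, miRNAs of this array alone and the detection limit. let-7a-5p, miR-125b-5p and miR-92a-3p near the rank limit, the miRNAs named in single-array moves, and miR-574-5p, were named after their values were seen. Genomic positions are RefSeq's on GRCm38.p6; the file headers name mm9 for the array design, and no coordinates of the files were used.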

Additional observations from a re-analysis of the deposited data

How the results depend on the processing

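Detection set how much was described: 134 miRNAs with the software's own detection and 44 with every probe above background, against 83. miR-451a held 43.5% with every probe above background, 34.9% with the brightest probe, 27.2% with normexp and 36.4% over all miRNAs. The 10 brightest held 66.4% with the software's detection, 76.9% with every probe above background, 67.4% with the brightest probe, 51.1% with normexp, 64.3% over all miRNAs, 51.8% without miR-451a, and, chosen after seeing the data, 71.1% over the miRNAs of all 3 arrays and 68.4% with all probes summed. With normexp, and without miR-451a, 10 miRNAs were needed for 50% of the signal. The offset of normexp is added to every spot and evens out shares by construction. The erythroid-restricted list held 44.3% with every probe above background, 35.5% with the brightest probe, 28.4% with normexp, 37.1% over all miRNAs and 1.21% without miR-451a. The 5p arms held 19.3%, 24.7%, 29.5%, 20.7% and 36.8% in the same order, and the 3p arms 18.8%, 22.6%, 25.8%, 19.2% and 34.1%, with 21.8% under the software's detection. The let-7 seed held 3.87% with the brightest probe, 5.03% with normexp, 3.42% over all miRNAs and 6.07% without miR-451a. Of the miRNAs at least 10 places higher and lower, 8 and 5 were counted with the software's detection (over 88 miRNAs, all 7 of the main ones kept), 1 and 1 with every probe above background (over 38), and 2 and 1 with a centred difference of at least 1 in place of ranks. Of 7 alternatives, the higher miR-466i-5p kept its place under 7, miR-328-3p under 6, miR-3095-3p under 5 and miR-342-3p under 3 (normexp, software's detection, all probes summed). Among the 7, the brightest probe and the deposited value table hold the same intensities at the same probes, so they are not separate checks. The lower miR-144-3p kept its place under 6, all but the centred difference, where −0.98 against the miRNeasy advanced array missed the limit, miR-142a-3p under 5 and miR-19a-3p under 2 (software's detection, centred difference). let-7f-5p and miR-125b-5p joined the higher ones with the brightest probe and in the deposited value table, and miR-125b-5p also with all probes summed. Muscle, epithelial and miR-30 seed shares were 0 with every probe above background. Apart from the offset, the fewer miRNAs and the other denominators, the cause of these moves was not tested. No paired analysis was possible because each extraction has 1 array. Signal limits the rest: the lowest detected probe stood at 22.0, against a mean negative-control signal of 5.41.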

Other observations

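A further 51 miRNAs were accepted by the scanner software on the exoRNeasy array without a probe well above background, against 26 with miRNeasy advanced and 27 with mirVana PARIS. They summed to a signal of 239.7, with 8.59 for the brightest. Of the 51, 29 are numbered 1000 or higher, near the share over the whole array, 1062 of 1881. On the other arrays 10 of 26 and 7 of 27 were. The 40 with a RefSeq sequence had a median of 59.0% G and C, above the 45.5% of the detected miRNAs. The median of all 1534 not detected, these 40 included, was 52.4%. The median over all probes, most of them at background, was −3.27 here, −1.79 with miRNeasy advanced and −1.70 with mirVana PARIS, while the mean negative-control signals were 5.41, 4.92 and 5.49.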
